A study of Mus musculus with 32 samples.

Results

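The genes Hipk4, Fam163b, Ttll8, Mex3a and Slc1a7 were examined in mouse lung because they were picked for a high level in mice given rosoxacin. They are 5 of the 26305 annotated genes with an own Ensembl identifier in the table, and 5 of the 2749 such genes with a mean of at least 0.1 FPKM (a level per transcript length and library depth) over all mice. The choice had no numerical threshold. The values of the rosoxacin mice chose the genes, so their levels there and every difference from those mice are given as a description, with no test. As deposited, all 5 had their highest group mean in rosoxacin lungs, which for Slc1a7 against control mice depends on the scaling, and single mice overlapped other groups for 3 of the 5 genes.

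Lung RNA came from 16 male wild-type C57BL/6J mice aged 6 to 8 weeks, with 4 mice in each of 4 groups and 2 sequencing lanes a mouse. The rosoxacin mice had dust of the World Trade Center site (WTCPM, particulate matter gathered at Ground Zero) together with rosoxacin, an antibiotic of the quinolone class, dosed at 5 mg/kg. The dexamethasone mice had the same dust with dexamethasone, a glucocorticoid drug, dosed at 0.1 mg/kg. The WTCPM group had the dust and no drug, and the control group had neither. No source used here gives the route or timing of dust and drugs. The study asked how the dust and both drugs alter the lung transcriptome.

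Unnamed assembled loci hold nearly all of the signal, and annotated genes with an own identifier hold 0.114% of the summed FPKM. None of the 11 lung epithelium markers listed for a check of the tissue (Sftpc, Scgb1a1, Ager and others) has an own identifier, so the tissue label was not checked with them. Loci carry no coordinates, and whether fragments of the 5 genes are also counted in an unnamed locus was not tested. The summed FPKM per mouse was 924277 to 1329954 in rosoxacin mice, 763725 to 861652 in dexamethasone mice, 742168 to 803130 in WTCPM mice and 704683 to 1099603 in control mice. Depth is not given, but the commonest low step of FPKM values, taken as 1 fragment, allowed an approximate count of fragments behind each gene. The library number in the labels is 1 to 4 in the rosoxacin mice and 5 to 23 in the others, so that low library number and rosoxacin cannot be told apart.

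The 5 genes belong to no common pathway. Hipk4 encodes a homeodomain-interacting protein kinase that in mice is best known from spermatids, where it takes part in shaping the sperm head. Ttll8 encodes a tubulin glycylase, an enzyme that adds the first glycine to tubulin side chains and acts in axonemes of motile cilia, such as those of airway cells. Mex3a encodes an RNA-binding protein with KH domains that in mice marks a slowly cycling set of intestinal stem cells. Slc1a7 encodes EAAT5, a glutamate transporter with a large chloride conductance, known from photoreceptors and bipolar cells of the retina. Fam163b encodes a small protein found mainly in brain, with little known of its function.

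All 5 are protein-coding genes in mm10. Hipk4 (ENSMUSG00000040424.15) lies at chr7:27523267-27531175 on the plus strand and Mex3a (ENSMUSG00000074480.4) at chr3:88532395-88541396 on the plus strand. Slc1a7 (ENSMUSG00000008932.9) lies at chr4:107968332-108013532 on the plus strand, Ttll8 (ENSMUSG00000022388.14) at chr15:88890633-88954418 on the minus strand, and Fam163b (ENSMUSG00000009216.7) at chr2:27110380-27142491 on the minus strand. They sit on 5 different chromosomes. Ttll8 shares 263 exon bases with AC117700.1 on its own strand and Mex3a shares 82 exon bases with Mir1905 on the opposite strand. Both partners were low, with Mir1905 listed at 0 in every group and AC117700.1 between 0 and 0.0516 FPKM in group means. No source used here says whether counting used the strand, so reads in the shared bases cannot be assigned with certainty.

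The 250 bases before the RefSeq start site (GRCm38.p6, each on the gene's own strand) differ in type among the 5 genes. The promoters of Hipk4, Ttll8 and Mex3a are printed because Hipk4 and Mex3a separated most clearly and Ttll8 carries a motif that few promoters hold. All 5 genes matched a RefSeq promoter. Capitals mark the X-box in Ttll8 and the GC box in Mex3a, and Hipk4 has no capitals. The windows are Hipk4 at chr7:27523011-27523260 (plus strand), Ttll8 at chr15:88954419-88954668 (minus strand) and Mex3a at chr3:88531696-88531945 (plus strand). The RefSeq start of Mex3a lies upstream of its GENCODE start given above.

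Hipk4: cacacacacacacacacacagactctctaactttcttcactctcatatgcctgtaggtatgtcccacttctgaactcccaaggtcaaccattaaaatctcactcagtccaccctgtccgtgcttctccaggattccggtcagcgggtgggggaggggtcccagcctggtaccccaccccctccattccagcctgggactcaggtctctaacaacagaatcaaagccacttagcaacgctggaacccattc

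Ttll8: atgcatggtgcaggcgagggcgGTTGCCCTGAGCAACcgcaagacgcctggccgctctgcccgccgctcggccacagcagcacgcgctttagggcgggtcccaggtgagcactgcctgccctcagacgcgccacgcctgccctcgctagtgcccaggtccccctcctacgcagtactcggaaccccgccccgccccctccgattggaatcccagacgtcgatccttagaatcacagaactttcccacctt

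Mex3a: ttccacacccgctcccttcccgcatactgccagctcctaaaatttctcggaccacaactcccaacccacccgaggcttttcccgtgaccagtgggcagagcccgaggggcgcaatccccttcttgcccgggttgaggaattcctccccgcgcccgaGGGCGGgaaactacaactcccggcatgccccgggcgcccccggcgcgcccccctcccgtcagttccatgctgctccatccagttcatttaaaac

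Ttll8, Mex3a and Fam163b have CpG-rich windows, with an observed over expected CpG ratio of 0.825, 0.823 and 0.822. GC content is 66.8% in Ttll8 and 64.0% in Mex3a. Hipk4 and Slc1a7 lie nearer to the median of the 32526 distinct promoters, which is 52.4% GC and a CpG ratio of 0.378. Their GC content is 53.6% and 54.8%, and their CpG ratio 0.250 and 0.326. The motifs below, chosen after the sequences were seen, were searched on both strands. The GC box GGGCGG, the core bound by Sp-family factors, occurs 4 times in Ttll8, once each in Fam163b, Mex3a and Slc1a7, and not in Hipk4, and 33.0% of all promoters hold it. The X-box, the motif of RFX factors, which are regulators of ciliary genes, is found in Ttll8 alone among the 5, starting 228 bases before the start site, and in 2.06% of all promoters. Its first base is the last base of one of the GC boxes. CCAAT occurs in Ttll8 (33.8% of all promoters), CACGTG in Slc1a7 (6.04%), and TATAAA in none of the 5 (12.3%). A match is a description of the letters and not evidence that a factor binds.

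Hipk4, the kinase with the promoter of low CpG content above, gave the clearest separation of the 5. Its level was 0.658, 0.721, 0.745 and 1.10 FPKM in rosoxacin mice, 0.184, 0.376, 0.283 and 0.356 FPKM in dexamethasone mice, 0.409, 0.515, 0.281 and 0.435 FPKM in WTCPM mice and 0.204, 0.363, 0.476 and 0.411 FPKM in control mice. All 4 rosoxacin mice lay above all 12 others, while the other 3 groups overlapped one another. The mean was 0.805 ± 0.198 FPKM in rosoxacin mice, 0.300 ± 0.0867 in dexamethasone mice, 0.410 ± 0.0970 in WTCPM mice and 0.364 ± 0.116 in control mice (SD, n = 4 each). The mean of rosoxacin mice was 2.69 times that of dexamethasone mice, 1.96 times that of WTCPM mice and 2.21 times that of control mice.

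Mex3a, the stem-cell RNA-binding protein, also separated completely, at a lower level. It had 0.313, 0.421, 0.315 and 0.372 FPKM in rosoxacin mice, 0.132, 0.217, 0.138 and 0.121 FPKM in dexamethasone mice, 0.216, 0.185, 0.164 and 0.123 FPKM in WTCPM mice and 0.229, 0.239, 0.280 and 0.181 FPKM in control mice. The lowest rosoxacin mouse, at 0.313 FPKM, stood above the highest control mouse, at 0.280 FPKM. The mean level in rosoxacin mice, 0.355 ± 0.0514 FPKM, was 2.34 times that of dexamethasone mice, 2.06 times that of WTCPM mice and 1.53 times that of control mice (SD, n = 4). The gap to control mice differed between lanes, with a log2 difference of 0.18 in lane 1 and 0.78 in lane 2, against 0.46 with both averaged.

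Of the 2749 annotated genes, 14 (0.509%) had all 4 rosoxacin mice above all 12 other mice, and so had 418 of all 27230 loci and genes (1.54%). Hipk4 and Mex3a are among these 14. The genes were chosen on the same values, so nothing is read from their count. Set against one group at a time, all 4 rosoxacin mice lay above all dexamethasone mice in 3.46% of the annotated genes, above all WTCPM mice in 2.18% and above all control mice in 2.15%. Of the 5 genes, 4 did so against dexamethasone mice, 3 against WTCPM mice and 4 against control mice.

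Ttll8, the glycylase whose promoter carries the X-box above, was the gene most often listed at 0. It had 0.367, 0.318, 0.375 and 0.446 FPKM in rosoxacin mice, 0, 0.214, 0 and 0.152 FPKM in dexamethasone mice, 0.352, 0.231, 0.167 and 0.133 FPKM in WTCPM mice and 0.0427, 0.0974, 0.235 and 0.267 FPKM in control mice. One WTCPM mouse, at 0.352 FPKM, lay above the lowest rosoxacin mouse, at 0.318 FPKM. All rosoxacin mice lay above all dexamethasone and all control mice. The mean in rosoxacin mice, 0.377 ± 0.0531 FPKM (SD, n = 4), was 1.70 times that of WTCPM mice and 2.34 times that of control mice.

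Fam163b had the highest level of the 5 and the widest spread. It had 0.635, 1.20, 1.12 and 1.84 FPKM in rosoxacin mice, 0.375, 0.323, 0.328 and 0.817 FPKM in dexamethasone mice, 0.855, 0.862, 0.670 and 0.384 FPKM in WTCPM mice and 0.193, 0.423, 0.435 and 0.461 FPKM in control mice. The lowest rosoxacin mouse lay below 3 of the 4 WTCPM mice and below 1 dexamethasone mouse, and the other 3 rosoxacin mice lay above all 12. The mean in rosoxacin mice was 1.20 ± 0.494 FPKM, against 0.461 ± 0.239 in dexamethasone mice, 0.693 ± 0.225 in WTCPM mice and 0.378 ± 0.124 in control mice (SD, n = 4 each).

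Slc1a7, the glutamate transporter, stood out least. Its level was 0.309, 0.246, 0.259 and 0.350 FPKM in rosoxacin mice, 0.149, 0.174, 0.0342 and 0.0816 FPKM in dexamethasone mice, 0.149, 0.131, 0.195 and 0.177 FPKM in WTCPM mice and 0.240, 0.190, 0.210 and 0.299 FPKM in control mice. Rosoxacin mice lay above all WTCPM and all dexamethasone mice, and 2 of the 4 lay above all control mice. Its mean in rosoxacin mice was 0.291 ± 0.0477 FPKM, 1.24 times the 0.235 ± 0.0478 FPKM of control mice (SD, n = 4 each), a difference of about the spread within either group. After each library was rescaled to the same sum (TPM), the log2 difference between rosoxacin and control mice had the opposite sign, -0.03 against 0.23 as deposited.

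**Figure D1:**
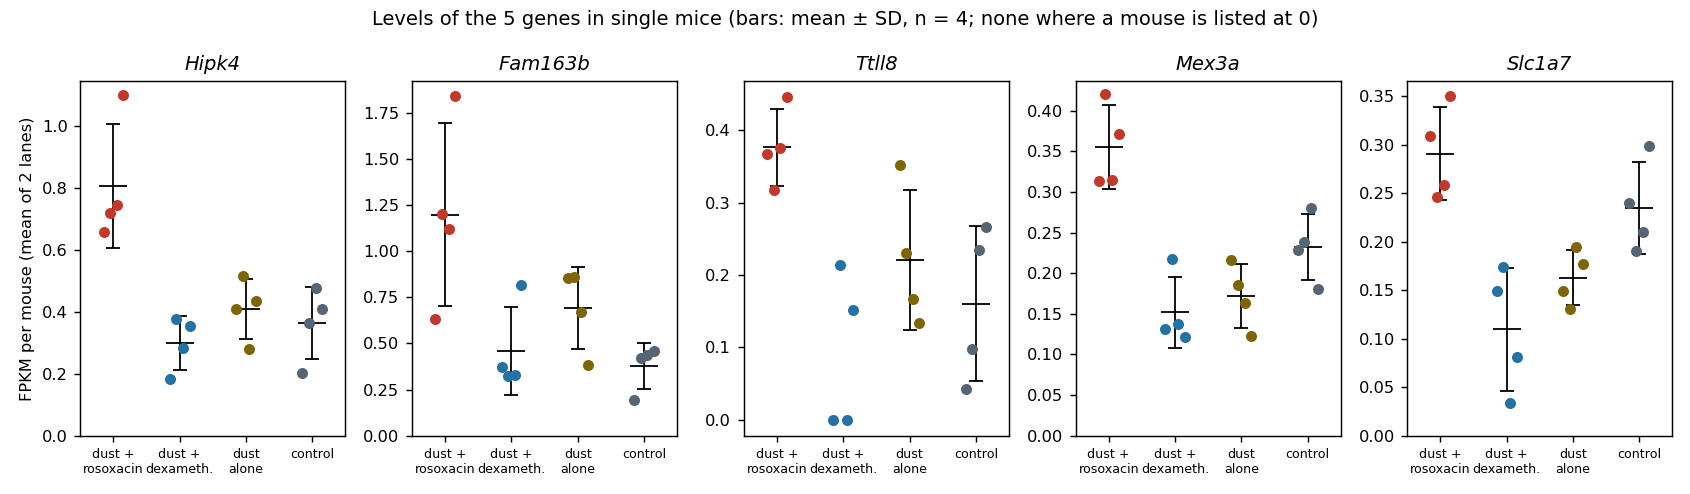
FPKM of each gene in single mice (points; mean of 2 lanes), with the mean and SD of 4 mice as bars, left out where a mouse is listed at 0; each panel has its own vertical axis. The rosoxacin points of Hipk4 and Mex3a lie above all others, while those of Fam163b, Ttll8 and Slc1a7 overlap at least 1 other group.

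The order of group means below rosoxacin followed 3 patterns. WTCPM mice came second for Hipk4, Fam163b and Ttll8, and control mice came second for Mex3a and Slc1a7. Dexamethasone mice were lowest for 4 genes, with Fam163b as the exception, where control mice were lowest. Neighbouring groups below rosoxacin overlapped for every one of the 5 genes. Among the 2749 annotated genes ranked by the rosoxacin mean over the highest other group mean, Hipk4 was at rank 31 (1.96), Fam163b at 71 (1.73), Ttll8 at 77 (1.70), Mex3a at 117 (1.53) and Slc1a7 at 304 (1.24). The median of that ratio was 0.724, and 638 genes (23.2%) were over 1.

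Scaling bears on every rosoxacin difference, because the median of all loci and genes was itself shifted. On log2(FPKM + 0.1) as deposited, that median was -0.18 for rosoxacin minus dexamethasone mice, -0.20 for rosoxacin minus WTCPM mice and -0.12 for rosoxacin minus control mice. Hipk4 differed by 1.18, 0.82 and 0.98 in the same order of comparisons, and Fam163b by 1.21, 0.68 and 1.40. For Ttll8 the values were 1.50, 0.61 and 0.97, for Mex3a 0.86, 0.75 and 0.46, and for Slc1a7 0.94, 0.57 and 0.23. After rescaling to TPM, the medians moved to -0.54, -0.60 and -0.44, and the differences of rosoxacin from WTCPM mice shrank to 0.45 for Hipk4, 0.29 for Fam163b, 0.29 for Ttll8, 0.45 for Mex3a and 0.27 for Slc1a7. With median-of-ratios scaling, which brings the medians to between 0.01 and 0.04, the same differences were 1.03, 0.89, 0.79, 0.92 and 0.74. Relative to the median feature the 5 genes were thus higher in rosoxacin mice under each of these 3 scalings.

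These are low levels resting on few fragments, which limits the precision of each mouse. With the longest annotated transcript of each gene, Hipk4 corresponds to an estimated 40 to 64 fragments per rosoxacin mouse, 14 to 22 per dexamethasone mouse, 15 to 30 per WTCPM mouse and 14 to 39 per control mouse. Ttll8 corresponds to at most 26 fragments in a rosoxacin mouse and at most 11 in a dexamethasone mouse. Slc1a7 had an estimated 14 to 21 fragments per rosoxacin mouse and 3 to 12 per dexamethasone mouse. Fam163b reached 39 to 108 in rosoxacin mice and 13 to 36 in control mice. With the shortest annotated transcript, Ttll8 corresponds to 4 to 6 fragments per rosoxacin mouse and 0 to 3 per dexamethasone mouse. Slc1a7 then corresponds to 9 to 13 per rosoxacin mouse and 2 to 7 per dexamethasone mouse. The estimate was added after the data were seen, and it is approximate because steps below 1 fragment also occur. In bulk lung RNA, more cells of a type and more RNA per cell cannot be told apart.

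Within Hipk4, 1 of its 2 transcript rows carried the difference. The row with 53.3% of its FPKM had 0.564 ± 0.0870 FPKM in rosoxacin mice, against 0.0807 ± 0.0537 in dexamethasone mice, 0.188 ± 0.146 in WTCPM mice and 0.169 ± 0.0964 in control mice (SD, n = 4 each). The other row had 0.241 ± 0.159 FPKM in rosoxacin mice, 0.219 ± 0.0858 in dexamethasone mice, 0.222 ± 0.0866 in WTCPM mice and 0.195 ± 0.0482 in control mice, and its ranges overlapped among all 4 groups. Rows are not paired with transcript identifiers in the table, so the isoform is not named. How fragments are divided between rows of so few fragments is an estimate of the assembler.

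Ttll8 was nearly all in 1 of its 4 rows, which held 93.5% of its FPKM and was above 0 in 22 of 32 libraries. That row was above 0 in all 8 rosoxacin libraries, in 4 of 8 dexamethasone libraries, in 5 WTCPM libraries and in 5 control libraries. Slc1a7 divided between both of its rows, and the second, with 40.0% of the FPKM, was above 0 in 4 rosoxacin libraries, no dexamethasone library, 3 WTCPM libraries and 4 control libraries. Its first row had a mean of 0.140 FPKM in rosoxacin mice, 0.110 in dexamethasone mice, 0.108 in WTCPM mice and 0.122 in control mice, a range no wider than the spread between mice. Fam163b and Mex3a have 1 row each, above 0 in all 32 libraries.

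**Figure D2:**
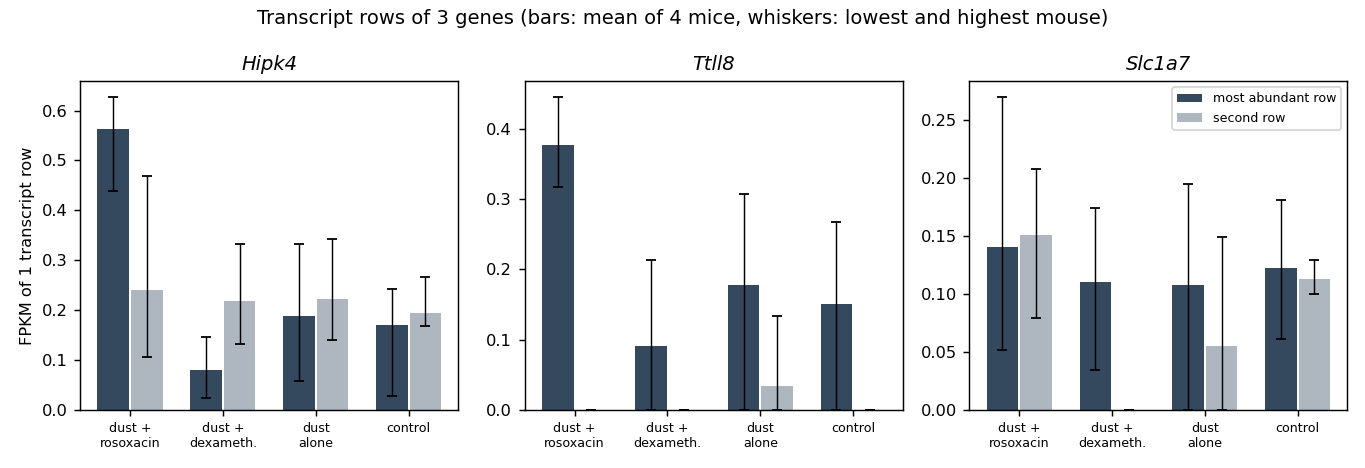
Mean FPKM of the most abundant and the second transcript row of Hipk4, Ttll8 and Slc1a7 in each group of 4 mice, with whiskers from the lowest to the highest mouse. The first row of Hipk4 reached 0.564 FPKM in rosoxacin mice, while its second row lay between 0.195 and 0.241 FPKM in the 4 groups.

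Library number moved with the level of 3 genes also among the 12 mice without rosoxacin, whose order by library number took no part in choosing the genes. Pearson's r of log2(FPKM + 0.1) with library number was -0.69 for Hipk4 (permutation p = 0.0146, adjusted over 5 genes 0.0264), with Spearman's rho -0.64 (permutation p = 0.0275, adjusted 0.0459). For Fam163b r was -0.68 (permutation p = 0.0158, adjusted 0.0264) and rho -0.74 (permutation p = 0.00733, adjusted 0.0183), and for Ttll8 r was -0.74 (permutation p = 0.00610, adjusted 0.0264) and rho -0.78 (permutation p = 0.00395, adjusted 0.0183). Low-numbered libraries had the higher levels. An r of -0.68 or lower was found in 163 of 2748 annotated genes (5.93%) and in 3407 of 27228 loci and genes (12.5%), so this relation is not particular to the 3 genes. The relation was examined after the data were seen.

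With the 2 mice of most extreme library number left out, r was -0.72 for Hipk4, -0.68 for Fam163b and -0.62 for Ttll8. Centred on group means it was -0.64, -0.59 and -0.71 for the same genes, and 4 mice are too few for a value within a group. The permutation p-values for library number belong to r and rho not centred, so they include differences between the groups. The centred r was not tested. Mex3a had an r of 0.16 (permutation p = 0.604, adjusted 0.756) and a rho of 0.26 (permutation p = 0.415, adjusted 0.519). For Slc1a7 r was -0.03 (permutation p = 0.932, adjusted 0.932) and rho 0.12 (permutation p = 0.717, adjusted 0.717). With those 2 mice left out r was 0.38 for Mex3a and 0.24 for Slc1a7. After rescaling to TPM, r was -0.72 for Hipk4, -0.72 for Fam163b and -0.75 for Ttll8, and it had the opposite sign for Mex3a, at -0.07.

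The nearest library to the rosoxacin mice, number 5, belongs to a WTCPM mouse. Rosoxacin mouse 3, library 4, had 0.745 FPKM of Hipk4 and that WTCPM mouse 0.409 FPKM. For Ttll8 the same pair had 0.375 FPKM in the rosoxacin mouse and 0.352 FPKM in the WTCPM mouse, and for Fam163b 1.12 FPKM in the rosoxacin mouse and 0.855 FPKM in the WTCPM mouse. Mex3a had 0.315 FPKM in the rosoxacin mouse and 0.216 FPKM in the WTCPM mouse, and Slc1a7 had 0.259 FPKM in the rosoxacin mouse and 0.149 FPKM in the WTCPM mouse. The rosoxacin mouse was the higher one for all 5 genes, by least for Ttll8. Values of rosoxacin mice chose the genes, and for Hipk4, Mex3a and Slc1a7 every rosoxacin mouse lay above every WTCPM mouse. The pair is thus a description, and nothing is read from it on library number. No source used here says what the library number stands for, and its part in the rosoxacin levels was not tested.

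**Figure D3:**
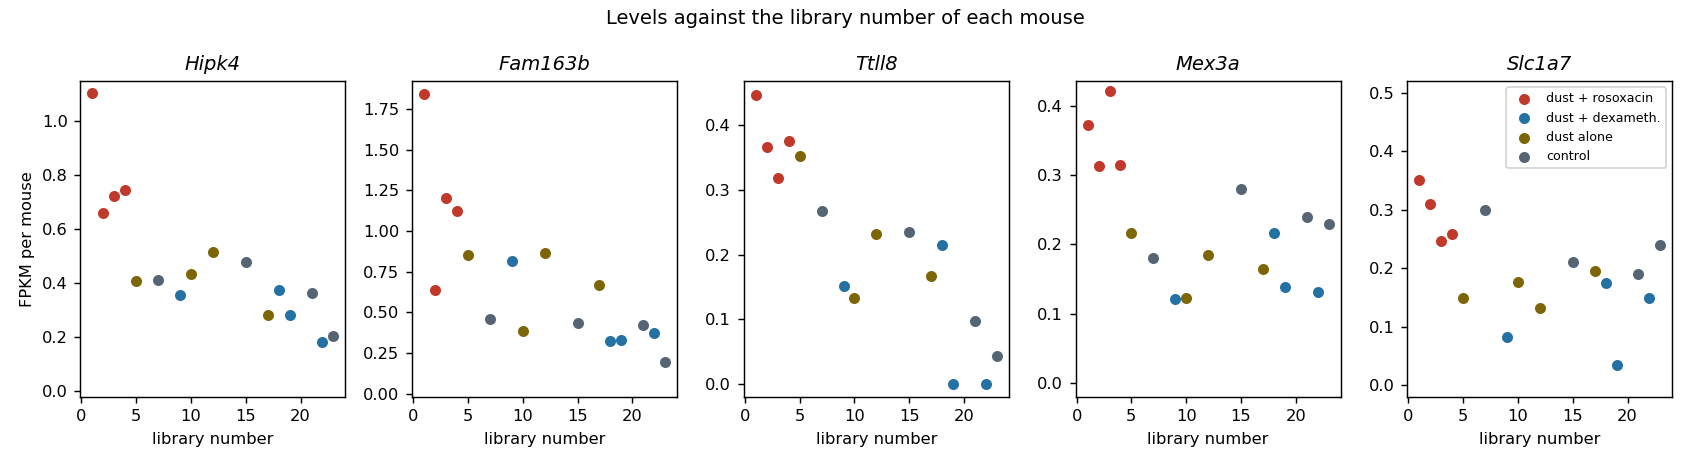
FPKM per mouse against its library number, coloured by group; rosoxacin mice are libraries 1 to 4. Among the other 12 mice the level falls with library number for Hipk4 (r = -0.69), Fam163b (r = -0.68) and Ttll8 (r = -0.74), and r is 0.16 for Mex3a (-0.07 after rescaling to TPM) and -0.03 for Slc1a7.

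The comparisons that leave out the rosoxacin mice could be tested. Dust without drug, WTCPM minus control, gave adjusted p under the threshold of 0.05 in 10 of 27230 loci and genes (0.0367%), 2 higher and 8 lower, by limma. Dexamethasone minus WTCPM gave 0 (0%) with limma, although 1428 (5.24%) had an unadjusted p under 0.05, and dexamethasone minus control gave 2 (0.00734%). None of the 5 genes was among the calls of any of these comparisons. At 4 mice a group this leaves wide intervals, so a missing call does not show equal levels.

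WTCPM minus control was positive for 3 of the 5 genes, and their median log2 difference was 0.16 against 0.06 over all loci and genes. Fam163b had the largest difference, 0.72 (95% interval -0.02 to 1.46, limma adjusted p = 0.860). Hipk4 differed by 0.16 (-0.41 to 0.72) and Ttll8 by 0.36 (-0.51 to 1.23). Mex3a and Slc1a7 had negative values, -0.29 (-0.78 to 0.19) and -0.34 (-0.90 to 0.21). With library number in the fit, the values of Hipk4 and Ttll8 had the opposite sign, at -0.06 and -0.08.

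All 5 genes had a lower mean log2 level in dexamethasone than in WTCPM mice, with a median difference of -0.37 against 0.00 over all loci and genes. Ttll8 had the largest, -0.89 (95% interval -1.76 to -0.02, limma adjusted p = 0.923). That difference includes 2 dexamethasone mice listed at 0. Fam163b differed by -0.53, Slc1a7 by -0.37, Hipk4 by -0.36 and Mex3a by -0.11. Each of their intervals included 0. With library number in the fit, these differences were -0.41 for Ttll8, -0.24 for Fam163b, -0.13 for Hipk4, -0.15 for Mex3a and -0.37 for Slc1a7. Against control mice, 4 of the 5 were lower in dexamethasone mice, with a median of -0.41 against 0.05 over all. Slc1a7 differed most, -0.72 (95% interval -1.27 to -0.16, limma adjusted p = 0.679), followed by Ttll8 at -0.53, Mex3a at -0.41 and Hipk4 at -0.20, and Fam163b was higher by 0.20. With the most abundant transcript row alone, Slc1a7 differed least, by -0.10, and Hipk4 most, by -0.53. These comparisons share mice, and none of the values passed the adjusted threshold.

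**Figure D4:**
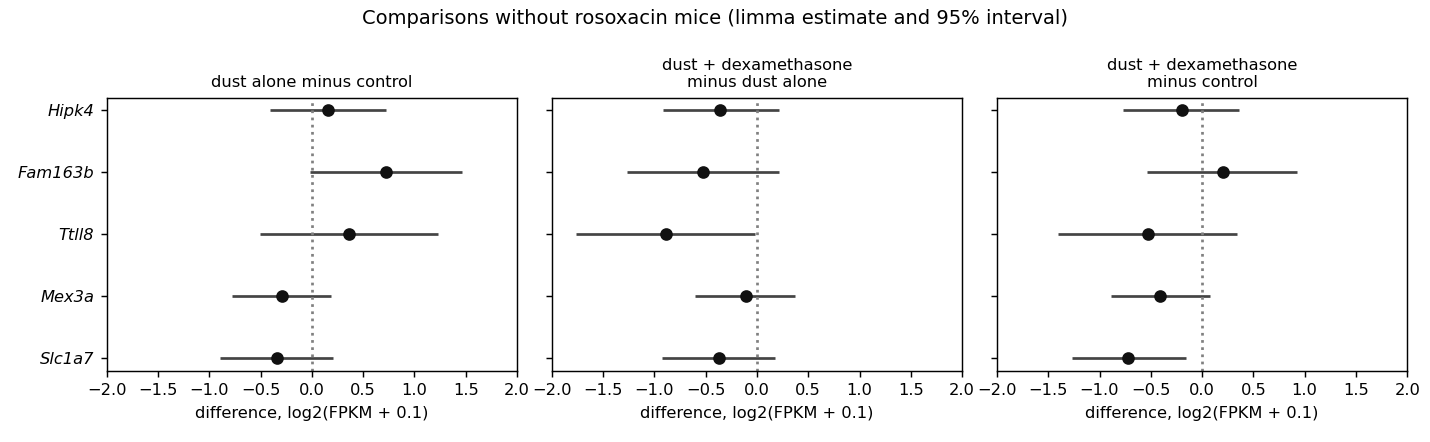
Difference in log2(FPKM + 0.1) of each gene with its 95% interval (limma, 4 mice a group) for the 3 comparisons without rosoxacin mice; the dotted line is 0. The intervals of Ttll8 in dexamethasone minus WTCPM and of Slc1a7 in dexamethasone minus control leave out 0, and no adjusted p passed the threshold.

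Over the 12 mice without rosoxacin, the 5 genes varied together only in part. Centred on group means, r between pairs lay between -0.20 and 0.74 over 10 pairs. Hipk4 and Ttll8 had the highest, r = 0.74 (permutation p = 0.00634, adjusted over the pairs 0.0634) and rho = 0.71 (permutation p = 0.0120, adjusted 0.120). Without the 2 mice farthest from the median of Hipk4, r was 0.56. Fam163b and Ttll8 followed with r = 0.59 (permutation p = 0.0450, adjusted 0.225) and rho = 0.55 (permutation p = 0.0650, adjusted 0.325). No pair passed after adjustment, and these are 3 genes whose level also moved with library number.

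The wider families are thinly represented. Of the HIPK kinases, MEX3 proteins and tubulin deglutamylases, no gene other than Hipk4 and Mex3a has an own identifier. Of the other 13 tubulin tyrosine ligase-like genes 2 have one, and Ttll13, a polyglutamylase, had a mean of 0.539 ± 0.0843 FPKM in rosoxacin mice, 0.784 ± 0.180 in dexamethasone mice, 0.472 ± 0.224 in WTCPM mice and 0.532 ± 0.0531 in control mice (SD, n = 4 each). Its highest group is thus not that of Ttll8. Slc1a2, the main glial glutamate transporter, had a mean of 0.379 ± 0.164 FPKM in rosoxacin mice, 0.323 ± 0.0740 in dexamethasone mice, 0.421 ± 0.239 in WTCPM mice and 0.333 ± 0.117 in control mice (SD, n = 4 each). Slc1a6, Ttll2 and Fam163a had a mean below 0.1 FPKM over the 16 mice. In none of the 3 tested comparisons did Ttll13 or Slc1a2 pass the adjusted threshold.

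Markers of spermatids, where Hipk4 is known, lay near 0, and those of neurons, set beside Fam163b, were low on average with single mice higher. Of 11 spermatid genes 7 have an own identifier, none reached 0.1 FPKM in any mouse, 3 are listed at 0 in every mouse, and their summed level was 0 to 0.0498 FPKM in rosoxacin mice, 0 to 0.0984 in dexamethasone mice, 0 to 0.0157 in WTCPM mice and 0 to 0.0978 in control mice. Hipk4 had 0.658 FPKM or more in rosoxacin mice, and the part of spermatid RNA in its level was not tested. Of 13 neuronal genes 7 have an own identifier, none had a mean of 0.1 FPKM over the 16 mice and 2 are listed at 0 in every mouse. Their sum was 0.0795 to 0.240 FPKM in rosoxacin mice, 0.0240 to 0.128 in dexamethasone mice, 0.0621 to 0.119 in WTCPM mice and 0.0171 to 0.596 in control mice. Single control mice reached 0.337 FPKM of Prph, a neuronal filament gene, and 0.189 FPKM of Snap25, a synaptic gene, which is within the scale of Fam163b there. The part of neuronal RNA in the levels of Fam163b was not tested.

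For the retina, the known site of Slc1a7, 9 of 11 genes have an own identifier, 1 averaged over 0.1 FPKM across the 16 mice (Pde6b, a rod phosphodiesterase subunit) and 2 are listed at 0 in every mouse. Their sum was 0.737 to 0.991 FPKM in rosoxacin mice, 0.449 to 0.760 in dexamethasone mice, 0.324 to 0.722 in WTCPM mice and 0.242 to 1.05 in control mice. All rosoxacin mice thus lay above all WTCPM mice in this sum, narrowly at 0.737 against 0.722 FPKM, and overlapped dexamethasone and control mice. Among the 2749 annotated genes, 2.18% had all rosoxacin mice above all WTCPM mice. Pde6b averaged 0.523 ± 0.117 FPKM in rosoxacin mice and 0.496 ± 0.249 FPKM in control mice (SD, n = 4 each), which overlap. Its range of 0.386 to 0.644 FPKM in rosoxacin mice also overlapped the 0.156 to 0.511 FPKM of WTCPM mice. Gnat1, the rod transducin gene, named after its values were seen, had 0.0773 to 0.209 FPKM in rosoxacin mice, 0 to 0.100 in dexamethasone mice, 0 to 0.0269 in WTCPM mice and 0 to 0.0997 in control mice. Its rosoxacin mice lay above all WTCPM mice and overlapped the other groups. Prph2, of the same list and also named after its values were seen, went the other way. It had 0 to 0.0551 FPKM in rosoxacin mice and 0.0752 to 0.193 in WTCPM mice. All its rosoxacin mice thus lay below all WTCPM mice, and they overlapped the other groups. The part of these retina genes in the level of Slc1a7 was not tested. The progenitor list, set beside Mex3a, had 5 of 7 genes with an own identifier and summed to 0.365 to 0.469 FPKM in rosoxacin mice, 0.261 to 0.551 in dexamethasone mice, 0.202 to 0.468 in WTCPM mice and 0.239 to 0.799 in control mice. Leukocytes were represented by Ly6g, listed at 0 in every rosoxacin and WTCPM mouse and at most 0.134 FPKM in a dexamethasone and 0.0553 FPKM in a control mouse.

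Endothelial Apold1 and Prox1, the 2 of 6 endothelial genes with an own identifier, summed to 1.44 to 2.05 FPKM in rosoxacin mice, 1.18 to 1.37 in dexamethasone mice, 0.903 to 1.36 in WTCPM mice and 0.766 to 1.39 in control mice. All rosoxacin mice lay above all others in this sum and in Apold1 alone, which had 1.07 to 1.58 FPKM in rosoxacin mice, 0.767 to 0.961 in dexamethasone mice, 0.438 to 0.783 in WTCPM mice and 0.629 to 0.858 in control mice. Prox1 did not separate, with 0.364 to 0.498 FPKM in rosoxacin mice, 0.330 to 0.454 in dexamethasone mice, 0.394 to 0.600 in WTCPM mice and 0.137 to 0.537 in control mice. The separation of the sum thus rested on Apold1. Among the 2749 annotated genes, 0.509% had all rosoxacin mice above all 12 others. The part of endothelial RNA in the levels of the 5 genes was not tested.

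Motile cilia, where Ttll8 acts, were represented by 2 of 25 genes with an own identifier, Mcidas and Ccno, both needed for forming the basal bodies of ciliated cells. Ccno had 2.47, 1.41, 0.497 and 0.223 FPKM in rosoxacin mice, 0.796, 0.711, 0.777 and 0.494 FPKM in dexamethasone mice, 0.596, 0.903, 0.858 and 0.791 FPKM in WTCPM mice and 0.742, 0.313, 0.461 and 0.677 FPKM in control mice. Mcidas had 1.14, 0.367, 0.234 and 0.134 FPKM in rosoxacin mice in the same order of mice, 0.317 to 0.442 FPKM in dexamethasone mice, 0.222 to 0.568 FPKM in WTCPM mice and 0.0939 to 0.378 FPKM in control mice. Both were highest in rosoxacin mouse 1 and lowest of that group in mouse 4. Ttll8 was highest in mouse 4, at 0.446 FPKM against 0.367 FPKM in mouse 1. The order of so few mice is a description. The part of ciliated cells in the level of Ttll8 was not tested.

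The 6 other annotated genes named by the highest correlation over all 16 mice with the mean standardised level of the 5 had r between 0.78 and 0.83. They include Prkaca-ps1 (r = 0.83), a processed pseudogene whose reads may come from its parent gene, and Fut2 (0.82), a fucosyltransferase of mucosal glycans. The others are Ripor3 (0.80), Ucn2 (0.80), a peptide ligand of a corticotropin-releasing hormone receptor, Zfp618 (0.79) and Slfnl1 (0.78). Fut2 averaged 1.06 ± 0.118 FPKM in rosoxacin mice, 0.460 ± 0.0829 in dexamethasone mice, 0.533 ± 0.131 in WTCPM mice and 0.641 ± 0.318 in control mice (SD, n = 4 each), and 3 of the 4 rosoxacin mice lay above all 12 others. Ucn2 averaged 0.302 ± 0.0966 FPKM in rosoxacin mice, 0.0749 ± 0.0284 in dexamethasone mice and 0.0726 ± 0.0505 in WTCPM mice (SD, n = 4 each), and ranged over 0 to 0.180 FPKM in control mice, where 1 mouse is listed at 0. The rosoxacin mice, on whose values the 5 genes were chosen, entered these r, which are given as a description.

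The transcripts of all 5 genes are longer and richer in GC than most annotated genes, with a mean length of 2233 to 5778 bases against a median of 1007, and a GC content of 52.7% to 57.2% against a median of 48.2%. Across 2699 genes with a value, r of the rosoxacin minus WTCPM difference was 0.04 with GC content and -0.01 with length, where genes are not independent replicates. Among the genes beside them, the pseudogene Gm8702, which lies 25603 bases from Ttll8, had a mean of 0.115 FPKM in rosoxacin mice, 0.0396 in dexamethasone mice, 0.0280 in WTCPM mice and 0.0399 in control mice. Gm37584, beside Mex3a, had 0.249 FPKM in rosoxacin mice, 0.190 in dexamethasone mice, 0.316 in WTCPM mice and 0.261 in control mice. Gm8702 was named after its values were seen. Mov10l1, 28491 bases from Ttll8, had its lowest mean in rosoxacin mice, at 0.0131 FPKM. Its mean was 0.0326 FPKM in dexamethasone mice, 0.0247 in WTCPM mice and 0.0360 in control mice.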

How the data were processed

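Per the labels' protocols, lung RNA of 16 mice was isolated by TRIzol and read as short Illumina reads. The authors deposited FPKM per transcript for 32 libraries in 1 table, which equals their single files. StringTie 2.1.5, HISAT2 2.2.1, HISAT, SAMtools, FastQC and R are named in the submitters' processing notes, with build mm10. No source used here gives the annotation or read numbers. Depth was estimated from the smallest FPKM steps of 19326 genes with 1 transcript row.

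Transcript rows were summed per gene or locus and lanes averaged per mouse, so n is mice. Mice were grouped by their labels, which name separate animals. The 27230 of 54640 features averaging 0.1 FPKM or more entered 1 limma 3.58.1 fit of 4 groups (R 4.3.3, eBayes with trend) on log2(FPKM + 0.1), with Benjamini-Hochberg adjustment over all of them and a threshold of 0.05. Fold changes on this scale understate changes of low genes. The fit was tested on simulated data. Correlations over mice used 100000 permutations, two-sided. All 5 genes passed the filter on low values, so the permutation test planned for genes under it was not needed.

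The 5 genes, family lists and marker lists were chosen with earlier results of these data known. Genes of like pattern were the 6 named, non-predicted genes with the highest correlation with the mean of the 5, and list genes with a mean of at least 0.1 FPKM were named. GENCODE M21 (mm10) gave coordinates and overlaps, and 24950 of 26305 identifiers matched it with their version. Promoters came from RefSeq (GRCm38.p6). Alternatives were other pseudocounts, filters, scalings, lanes, feature sets, the most abundant transcript, 2-group fits, no trend, a replicate block, library number as a covariate and each mouse left out. Plots used matplotlib 3.10.9 (Python 3.11.15).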

Additional observations from a re-analysis of the deposited data

Results flagged for a closer look

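Among 20 groups of 4 mice, 5 genes in 4 groups, a single mouse stood far from the other 3 in 2 groups, and chance flags about 1 in 20 groups. Both concern Fam163b. In dexamethasone mice the highest mouse had 0.817 FPKM, and its gap to the next mouse was 0.895 of the whole range. In control mice the lowest mouse had 0.193 FPKM, with a gap of 0.856 of the range. Without that dexamethasone mouse the log2 difference of Fam163b in dexamethasone minus control was -0.07, and without that control mouse -0.03, against 0.20 with all mice.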

How the results depend on the processing

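Depth limits these results: the 5 genes rest on an estimated 0 to 108 fragments a mouse, and library number and rosoxacin cannot be told apart. Of the changes of single genes tested without rosoxacin mice, 439 values under alternatives kept their direction, 8 reversed and none passed the adjusted threshold. The 439 include settings that cannot alter the value, such as no trend, the replicate block or leaving out a mouse of another group. The cause of the reversals was not tested. WTCPM minus control reversed with lane 2 alone for Mex3a (0.01) and Hipk4 (-0.00, just below 0), and for Hipk4 and Ttll8 with library number as covariate (-0.06 and -0.08). Slc1a7 in dexamethasone minus WTCPM reversed with the most abundant transcript (0.09). Leaving out 1 mouse gave -0.03 to 0.29 for Hipk4 in WTCPM minus control, reversed without control replicate 1, and -0.07 to 0.30 for Fam163b in dexamethasone minus control, reversed without dexamethasone replicate 4 or control replicate 1. Of the rosoxacin differences, 320 values moved by less than the spread between mice, 24 moved more with the same sign and 1 reversed. The 320 include settings that leave out a mouse of a group not compared, where the value cannot move. Slc1a7 in rosoxacin minus control was -0.03 after rescaling to TPM. Correlations reversed for Hipk4 and Slc1a7 (0.06 without 2 mice, 0.09 not centred), Fam163b and Mex3a (-0.29 and -0.16 under the same settings) and Mex3a and Slc1a7 (-0.27 without 2 mice).

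The 10 calls of WTCPM minus control became 6 with a pseudocount of 1, 5 with no filter, 4 with median-of-ratios scaling, 2 with lane 2 alone, 0 with annotated genes only, 5 with the most abundant transcript, 2 with only the compared groups, 4 without trend and 3 with library number. Leaving out 1 mouse gave 2 to 14. The 2 calls of dexamethasone minus control became 4 with quantile normalisation, 1 with annotated genes only, 1 with the most abundant transcript and 1 with only the compared groups, and leaving out 1 mouse gave 1 to 7. Dexamethasone minus WTCPM, with 0 calls, gave 0 to 2 when 1 mouse was left out, with 2 without WTCPM replicate 1. The filter at 0.2 FPKM gave no value for Slc1a7, whose mean is lower.

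Mouse numbers were not used to pair the groups in the main fit. Deviations of same-numbered mice had r of -0.30 to 0.53 over 24 pairs, 6 of them over 0.1. The highest were for dexamethasone with control mice, 0.53 for number 1 and 0.41 for number 4. Mice of different numbers were not compared, so whether the numbers pair the groups was not settled. With the replicate block the calls were 11 for WTCPM minus control, 0 for dexamethasone minus WTCPM and 4 for dexamethasone minus control.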
